A study of Homo sapiens with 5 samples.

Results

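NEAT1 and MALAT1 are neighbouring long noncoding RNA genes whose transcripts stay in the nucleus, and they are followed here site by site in human HEK293T cells that lack a subunit of the cleavage factor CFIm. Both genes were chosen by name from a table of reads at poly(A) sites and not by a cut on their values. Earlier results of these data were known when they were chosen. They are 2 of 31173 genes in the table. NEAT1 had 36 listed sites and MALAT1 had 49, of 272248 distinct sites in all. HEK293T is a transformed human embryonic kidney line. The 5 libraries came from 1 control culture labelled wild type, 2 cell lines with a CFIm59 knockout and 2 cell lines with a CFIm68 knockout, the knockouts having been made with CRISPR/Cas9. The control was a single library, so its spread was not measured, and the fits assume that it varies like the knockout lines. Each knockout is given by the labels as different cell lines, so the spread measured is between lines of 1 genotype.

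CFIm is a cleavage factor that binds UGUA motifs in nascent RNA through its subunit CFIm25 and helps choose where a transcript is cut and polyadenylated. CFIm59 and CFIm68 are its larger subunits, with tails of arginine and serine repeats. NEAT1 is made in a short form, which ends at a poly(A) site near the start of the gene, and in a long form that reads through this site. The long form is the scaffold of paraspeckles, nuclear bodies that hold RNA-binding proteins, and its 3′ end is cut by RNase P and carries no poly(A) tail. CFIm is known to promote the short form, and hnRNP K to restrain it. MALAT1 is an abundant RNA of nuclear speckles, the bodies that store splicing factors. RNase P also cuts its main 3′ end, which a triple helix protects in place of a poly(A) tail. The libraries were primed with oligo(dT), so the tailless long NEAT1 and mature MALAT1 are not expected to be read at their own ends, and every count below is of tailed RNA or of priming on A-rich stretches inside an RNA.

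The sequence around the short end of NEAT1 is shown because most NEAT1 reads lay there. It comes from the GENCODE V29 transcript NEAT1-202, build GRCh38, chr11:65426364-65426573, plus strand. It runs from 150 nt before to 60 nt after the annotated end of the short transcript NEAT1-208. Capitals mark TGTA, the DNA form of UGUA, and the poly(A) signal AATAAA.
NEAT1 short end: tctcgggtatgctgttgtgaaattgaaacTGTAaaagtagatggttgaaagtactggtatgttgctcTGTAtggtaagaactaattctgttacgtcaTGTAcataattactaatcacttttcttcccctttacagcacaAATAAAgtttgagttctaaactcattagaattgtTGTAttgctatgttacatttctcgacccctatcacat
Of the 4 TGTA motifs on this strand, 3 lay before the annotated end, starting 121, 83 and 53 nt before it, and AATAAA started 11 nt before it. Both motifs were searched on the transcript strand only. Of 199567 GENCODE transcripts of at least 150 nt, 5.21% held 3 or more TGTA in their last 150 nt, 44.8% held at least 1 and 28.9% held AATAAA. A match describes letters and is not evidence of binding.

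The end of the long NEAT1 transcript and the end of a MALAT1 transcript are shown for comparison, with the same capitals. The first lies at chr11:65445421-65445540 (NEAT1-202) and the other at chr11:65506387-65506516 (MALAT1-209), both GRCh38 and plus strand.
NEAT1 long end: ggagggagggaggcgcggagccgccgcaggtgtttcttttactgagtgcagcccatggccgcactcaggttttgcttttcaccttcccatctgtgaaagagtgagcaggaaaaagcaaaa
MALAT1 3′ end: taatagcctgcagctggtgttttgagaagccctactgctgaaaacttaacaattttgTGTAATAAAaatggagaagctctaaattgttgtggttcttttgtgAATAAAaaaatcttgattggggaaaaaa
The 120 nt at the long NEAT1 end held 0 TGTA and 0 AATAAA. The MALAT1 stretch held 1 TGTA, which overlaps the first of its 2 AATAAA. It runs past the annotated end of another transcript, MALAT1-202, at chr11:65506469. The last 150 nt of MALAT1-202 held 2 TGTA and 1 AATAAA.

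Stretches of A inside the annotated transcripts of both genes are shown because an oligo(dT) primer can anneal to them. Capitals here mark the run of A. They lie at chr11:65428805-65428865 and chr11:65432980-65433043 in NEAT1 and at chr11:65506038-65506130 in MALAT1 (GRCh38, plus strand).
NEAT1 A run 1: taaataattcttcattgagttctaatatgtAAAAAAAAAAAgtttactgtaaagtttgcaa
NEAT1 A run 2: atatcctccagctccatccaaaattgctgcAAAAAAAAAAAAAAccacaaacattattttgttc
MALAT1 A tract: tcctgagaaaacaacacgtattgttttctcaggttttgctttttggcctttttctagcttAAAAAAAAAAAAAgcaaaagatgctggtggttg
The read positions are in build hg19 and the sequences in GRCh38, and no coordinate was converted between them. Distances within each build can be set side by side. The most-read NEAT1 site lay 19011 nt before the last NEAT1 site with 10 or more reads (hg19), and the end of NEAT1-208 lay 19027 nt before that of NEAT1-202 (GRCh38). That most-read site is called the short end below.

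The libraries held 1673687 to 2924266 reads, of which 6.01 to 10.8% were mitochondrial. The check of the targeted genes gave a mixed picture. CPSF6, which encodes CFIm68, had 119 CPM in the control, 140 and 142 in the CFIm59 lines, and 47.6 and 45.4 in the CFIm68 lines. It fell by 1.35 on the log2 scale in the CFIm68 lines (SE 0.25, adjusted p = 0.000511, edgeR quasi-likelihood test with Benjamini-Hochberg adjustment). CPSF7, which encodes CFIm59, had 68.0 and 55.1 CPM in the CFIm59 lines against 59.4 in the control, so its reads do not check that label. A CRISPR change need not lower reads at a 3′ end. Of 6 HEK293T markers, all tested, 0 were higher and 1 lower in the CFIm59 lines (median -0.30). Over all genes, 6.98% were higher and 6.87% lower there. In the CFIm68 lines 0 markers were higher and 1 lower (median 0.62), where 1.59% of all genes were higher and 2.03% lower. Between the knockouts 4 markers were higher and 1 lower (median 1.13), where 9.46% of all genes were higher and 10.3% lower. Medians over all genes were 0.02, 0.02 and 0.00 in these comparisons. The marker lower in the CFIm59 lines was IRS4, with no read in either line against 11.9 CPM in the control, and the one lower in the CFIm68 lines was NEFL. The liver gene ALB had 26.1 CPM in the control and at most 0.411 CPM in any knockout line, and the epithelial gene EPCAM had 47.7 CPM in CFIm59 line 1 against 4.48 in the control. The part of these differences in the results below was not tested.

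NEAT1 rose in the cells without CFIm59 and did not pass the test in the cells without CFIm68. Its sites together had 102 reads in the control library, 228 and 289 in the CFIm59 lines, and 115 and 65 in the CFIm68 lines. As CPM (counts rescaled by library total, after TMM scaling), these were 38.1 in the control, 136 and 119 in the CFIm59 lines, and 39.7 and 28.7 in the CFIm68 lines. Both CFIm59 lines lay above all other libraries, and the CFIm68 lines lay on either side of the control. NEAT1 was 3.34-fold higher in the CFIm59 lines than in the control (log2 1.74, SE 0.29, adjusted p = 1.83e-05, edgeR quasi-likelihood test with Benjamini-Hochberg adjustment). In that comparison 13.9% of 14636 genes passed the test, 6.98% being higher, and NEAT1 ranked 749 from the highest.

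Against the control, NEAT1 in the CFIm68 lines differed by -0.15 on the log2 scale (SE 0.29, 95% interval -0.71 to 0.42, edgeR adjusted p = 0.862), where 3.61% of genes passed. Between the knockouts, NEAT1 was lower in the CFIm68 lines, by -1.88 on the log2 scale (SE 0.23, edgeR adjusted p = 9.47e-09), where 19.7% of genes passed. In bulk RNA, fewer cells with an RNA and less RNA per cell cannot be told apart. The plot of levels gives all 5 libraries.

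**Figure D1:**
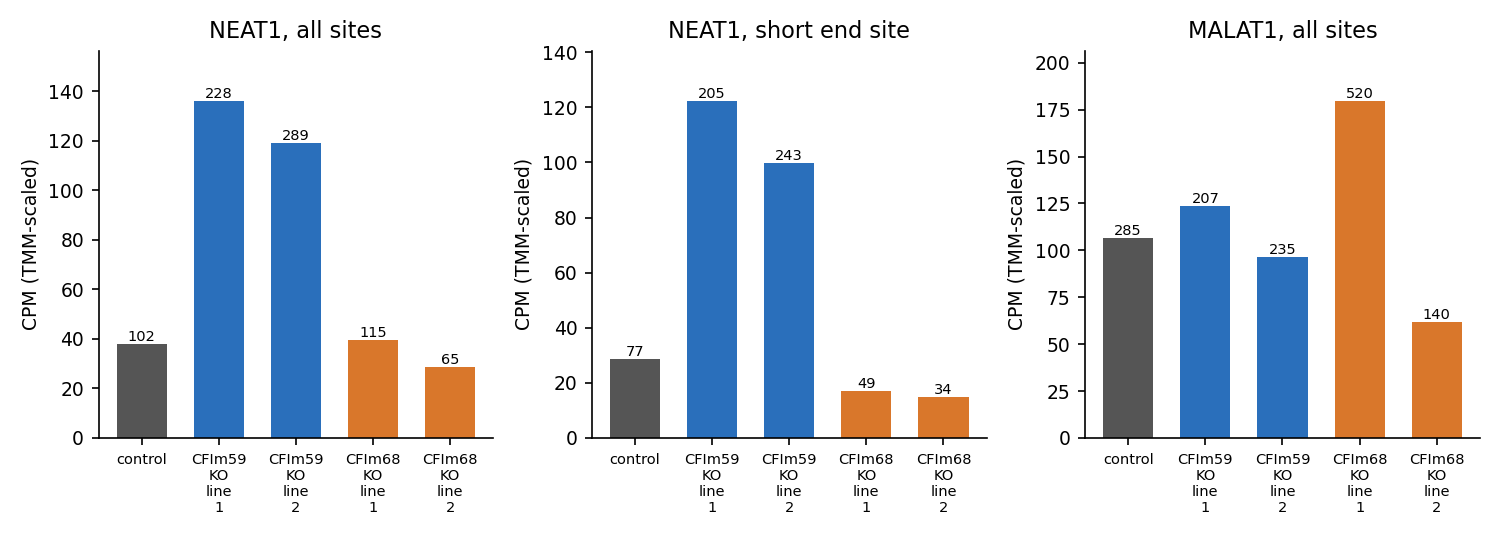
Bars give TMM-scaled CPM (linear axis from 0) of all NEAT1 sites, of the NEAT1 short end and of all MALAT1 sites in each of the 5 libraries; numbers above bars are reads. Both CFIm59 lines stand above the other libraries for NEAT1, while the CFIm68 lines bracket all other libraries for MALAT1.

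Most NEAT1 reads lay at the short end, at chr11:65193996 (hg19, plus strand), which the authors class as intronic. This site had 77 reads in the control library, 205 and 243 in the CFIm59 lines, and 49 and 34 in the CFIm68 lines. The scaled levels were 28.8 CPM, then 122 and 100 CPM (111 ± 15.7, SD, n = 2), then 16.9 and 15.0 CPM (16.0 ± 1.36, SD, n = 2). The CFIm59 lines were highest and the CFIm68 lines lowest.

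The short end rose by 1.99 on the log2 scale in the CFIm59 lines (SE 0.33, edgeR adjusted p = 3.32e-07), where 11% of 25948 sites passed. In the CFIm68 lines it was lower than in the control by -0.79 (SE 0.34), which did not pass (edgeR adjusted p = 0.106), where 14.6% of sites passed. Between the knockouts the short end was lower in the CFIm68 lines by -2.78 (SE 0.27, edgeR adjusted p = 9.21e-22), where 37.1% of sites passed. The other 2 NEAT1 sites tested did not pass in any comparison.

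**Figure D2:**
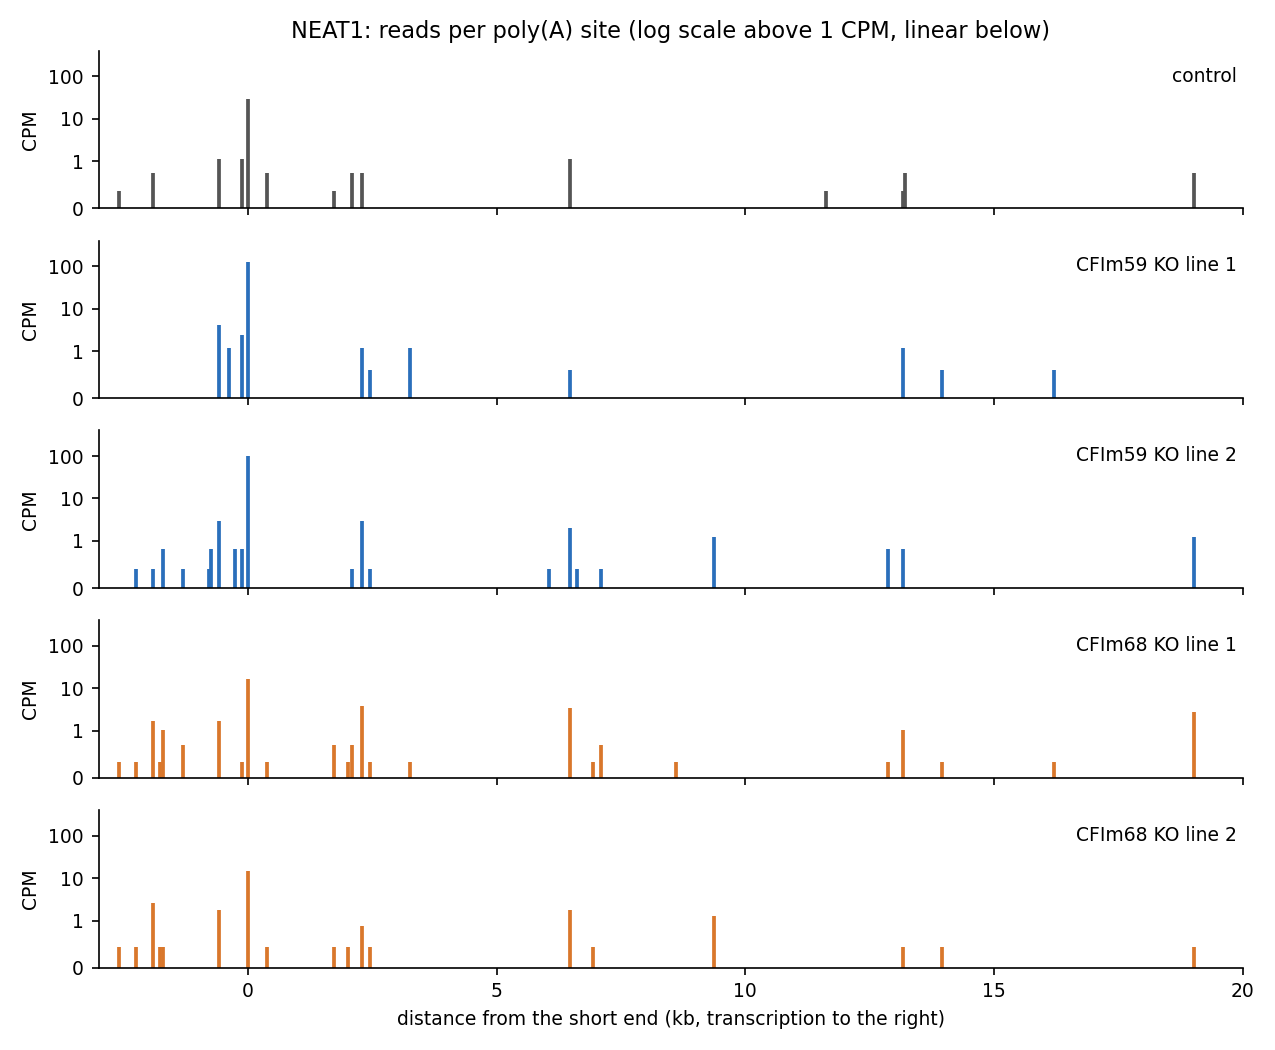
Each vertical line is a NEAT1 poly(A) site, placed by its distance from the short end in kb, with its height in CPM (log axis above 1, linear below) and 1 row per library. The short end at 0 is the highest site in every library, and sites up to 19011 nt downstream carry few reads each.

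The make-up of NEAT1 reads differed between the knockouts. The short end held 75.5% of NEAT1 reads in the control (Wilson 95% interval 66.3 to 82.8%), 89.9 and 84.1% in the CFIm59 lines (87.0 ± 4.12, SD, n = 2), and 42.6 and 52.3% in the CFIm68 lines (47.5 ± 6.86, SD, n = 2). The 21 sites downstream of it held 16 reads in the control library, 10 and 27 in the CFIm59 lines, and 47 and 17 in the CFIm68 lines. As shares of NEAT1 these were 15.7% in the control, 4.39 and 9.34% in the CFIm59 lines, and 40.9 and 26.2% in the CFIm68 lines. The share downstream was thus highest in both CFIm68 lines and lowest in both CFIm59 lines.

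Per downstream read there were 4.81 short-end reads in the control culture, 20.5 and 9 in the CFIm59 lines, and 1.04 and 2 in the CFIm68 lines. This ratio of the most-read site to all sites downstream was tested across 3650 genes, in a comparison added after the NEAT1 values had been seen. It was lower in the CFIm68 lines than in the control by -1.85 on the log2 scale (SE 0.52, edgeR adjusted p = 0.00345), where 26.7% of genes passed and 4.47% were lower. Without CFIm68 line 1 the value was -1.26 and did not pass (edgeR adjusted p = 0.221). With DESeq2 it was -1.79 and did not pass either (adjusted p = 0.138).

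In the CFIm59 lines the ratio was higher than in the control by 1.35 (SE 0.56), which did not pass (edgeR adjusted p = 0.101), where 11.3% of genes passed. Without CFIm59 line 2 it was 2.09 and passed (edgeR adjusted p = 0.0375). Between the knockouts the ratio was lower in the CFIm68 lines by -3.20 (SE 0.40, edgeR adjusted p = 9.81e-12), where 49.3% of genes passed and 8.05% were lower. That comparison kept its direction under all 7 alternatives run, and it passed with DESeq2 (adjusted p = 4.71e-06). Merging sites within 24 nt, among these alternatives, gave the same values as the main fit.

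**Figure D3:**
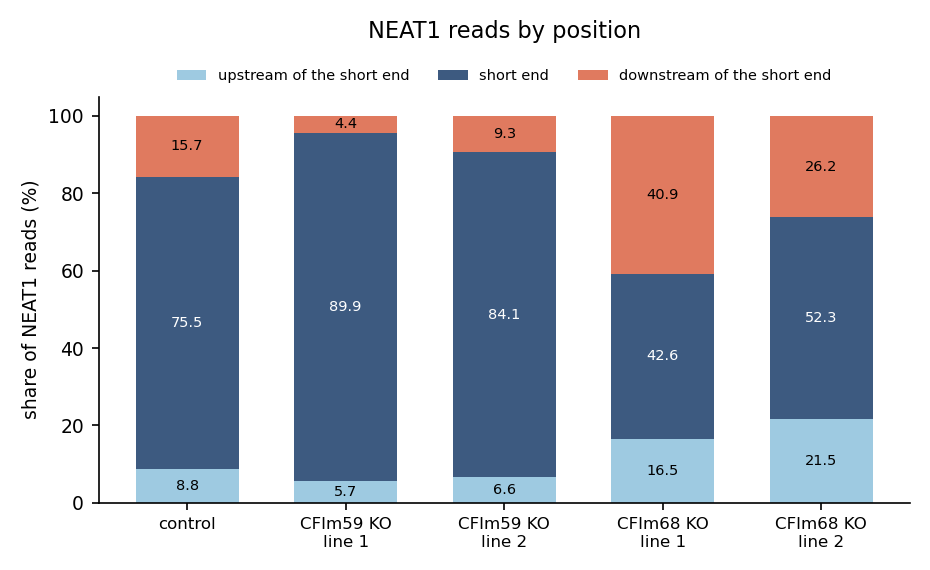
Stacked bars give the share of NEAT1 reads (%) upstream of, at and downstream of the short end in each library. The downstream share is 40.9 and 26.2% in the CFIm68 lines, 15.7% in the control, and 4.39 and 9.34% in the CFIm59 lines.

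The downstream reads themselves were few. Summed over the 21 sites, they stood at 5.97 in the control on the CPM scale used above. The CFIm59 lines had 5.96 and 11.1 CPM and the CFIm68 lines 16.2 and 7.49 CPM. The tests below scaled each library by the downstream reads of all genes, not by all of its reads. Against the control, 18.4% of 3908 genes passed in the CFIm68 lines, where the NEAT1 downstream reads were higher. Their change on the log2 scale was 1.37 (SE 0.45, edgeR adjusted p = 0.0184). Without CFIm68 line 1 this was 0.70 and did not pass (edgeR adjusted p = 0.491), and with DESeq2 it was 1.41 and did not pass (adjusted p = 0.403). In the CFIm59 lines they differed from the control by 0.39 (SE 0.49, edgeR adjusted p = 0.686), where 7.47% passed. Between the knockouts the difference was 0.98 (SE 0.35, edgeR adjusted p = 0.0183), where 39.5% passed, and it was 0.32 without CFIm68 line 1 (edgeR adjusted p = 0.681) and 0.65 without CFIm59 line 1 (edgeR adjusted p = 0.213). With DESeq2 it was 1.03 and did not pass (adjusted p = 0.337).

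Of these downstream sites, 3 had 10 or more reads over the 5 libraries. The site at chr11:65196298 had 2 reads in the control library, 2 and 7 in the CFIm59 lines, and 11 and 2 in the CFIm68 lines. The site at chr11:65200469 had 3 in the control, 1 and 5 in the CFIm59 lines, and 10 and 4 in the CFIm68 lines. Both lie near A runs by distance. The first lay 16709 nt before the last site in hg19, and A run 1, of 11 A, ended 16695 nt before the end of NEAT1-202 in GRCh38. For the other, the distances were 12538 nt for the site and 12517 nt for A run 2, of 14 A. Of the 6 runs of 8 or more A in NEAT1-202, the longest, of 22 A, had its nearest site 391 nt away by the same measure, with 3 reads. The other 3 runs lay 12, 4 and 16 nt from their nearest sites, chr11:65207163 with 9 reads and, for the last 2 runs, chr11:65207940 with 3. Whether reads came from priming on such runs was not tested. The last site, at chr11:65213007, had 2 reads in the control library, 0 and 3 in the CFIm59 lines, and 8 and 1 in the CFIm68 lines, so 8 of its 14 reads came from CFIm68 line 1.

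Upstream of the short end, 14 NEAT1 sites together held 9 reads in the control library, 13 and 19 in the CFIm59 lines, and 19 and 14 in the CFIm68 lines. Their share of NEAT1 was 8.82% in the control, 5.70 and 6.57% in the CFIm59 lines, and 16.5 and 21.5% in the CFIm68 lines. The site at chr11:65192091 had 2 reads in the control library, 0 and 1 in the CFIm59 lines, and 5 and 6 in the CFIm68 lines. The site at chr11:65193886 had 3 in the control, 4 and 2 in the CFIm59 lines, and 1 and 0 in the CFIm68 lines.

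The site at chr11:65193407 formed, with the short end, the most-read pair of the gene. It had 3 reads in the control library, 7 and 7 in the CFIm59 lines, and 5 and 4 in the CFIm68 lines. Its share of the pair was 3.75% in the control, 3.30 and 2.80% in the CFIm59 lines, and 9.26 and 10.5% in the CFIm68 lines. Between the knockouts the change toward this proximal site was 1.81 on the log2 scale (SE 0.71, edgeR adjusted p = 0.0313), where 46.6% of 5869 genes passed. The call was lost when any single knockout line was left out (edgeR adjusted p from 0.0520 to 0.130) and with DESeq2 (adjusted p = 0.0740). Against the control it did not pass in the CFIm59 lines (-0.37, edgeR adjusted p = 0.901, 5.98% of genes passing) or in the CFIm68 lines (1.44, edgeR adjusted p = 0.274, 28.1% passing). In all, 2 NEAT1 sites had no read, 7 had 10 or more and 3 were tested; the authors class 33 as intronic and 3 as last exon.

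MALAT1 did not pass the test of expression in any comparison, and its CFIm68 lines differed from each other. It had 285 reads in the control library, 207 and 235 in the CFIm59 lines, and 520 and 140 in the CFIm68 lines. The scaled levels were 106 CPM for the control, 123 and 96.7 CPM for the CFIm59 lines (110 ± 18.9, SD, n = 2), and 179 and 61.7 CPM for the CFIm68 lines (121 ± 83.3, SD, n = 2). CFIm68 line 1 was the highest library and CFIm68 line 2 the lowest.

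MALAT1 differed from the control by 0.04 on the log2 scale in the CFIm59 lines (SE 0.31, 95% interval -0.57 to 0.66, edgeR adjusted p = 0.954). In the CFIm68 lines it differed from the control by 0.19 (SE 0.31, 95% interval -0.42 to 0.80, edgeR adjusted p = 0.822). Between the knockouts the difference was 0.15 (SE 0.26, edgeR adjusted p = 0.733). Leaving out a CFIm68 line turned this last value: it was -0.83 without line 1 (edgeR adjusted p = 0.0146) and 0.72 without line 2 (edgeR adjusted p = 0.0154).

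MALAT1 reads gathered at 2 ends of the stretch that holds its listed sites. This stretch spans 7367 nt and MALAT1-202 is 8708 nt long, so its annotated 5′ end lies upstream of all listed sites. In the 5′ part of the stretch, 6 sites had 10 or more reads, from chr11:65266734 to chr11:65267432. They held 194 reads in the control library, 132 and 151 in the CFIm59 lines, and 358 and 90 in the CFIm68 lines. Their share of MALAT1 was 68.1% in the control, 63.8 and 64.3% in the CFIm59 lines, and 68.8 and 64.3% in the CFIm68 lines. The share varied little between libraries while the reads varied widely. Whether priming inside the RNA gave these reads was not tested. A further site in this range, chr11:65266939, had 1 read in all and is not counted among them. The site at chr11:65267432 had most reads of these, with 62 in the control, 41 and 39 in the CFIm59 lines, and 87 and 23 in the CFIm68 lines.

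The 3′ end site of MALAT1, at chr11:65273937, had 41 reads in the control library, 33 and 32 in the CFIm59 lines, and 45 and 23 in the CFIm68 lines. Its share of MALAT1 was 14.4% in the control, 15.9 and 13.6% in the CFIm59 lines, and 8.65 and 16.4% in the CFIm68 lines. It did not pass in the CFIm59 lines (log2 0.12, edgeR adjusted p = 0.900), in the CFIm68 lines (-0.18, edgeR adjusted p = 0.825) or between the knockouts (-0.30, edgeR adjusted p = 0.519). This site lay 79941 nt from the NEAT1 short end in hg19, and the end of MALAT1-202 lay 79956 nt from that of NEAT1-208 in GRCh38. The name of the site refers to that annotated end of MALAT1-202, not to the end of MALAT1-209 shown above. The tailless end cut by RNase P was not located here. A MALAT1 site with 3 reads in all lay 355 nt before the 3′ end site in hg19. The tract of 13 A shown above ended 359 nt before the end of MALAT1-202 in GRCh38.

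Between these groups of sites, chr11:65271100 had 4 reads in the control library, 9 and 8 in the CFIm59 lines, and 26 and 6 in the CFIm68 lines. It was higher than in the control by 2.03 on the log2 scale in the CFIm68 lines, which did not pass (edgeR adjusted p = 0.0592). This MALAT1 site lay 2837 nt before the 3′ end site in hg19. The annotated end of MALAT1-201 lay 2860 nt before that of MALAT1-202 in GRCh38, at chr11:65503530-65503609 on the plus strand, and its last 80 nt are shown for that reason, with TGTA and AATAAA in capitals.
MALAT1 middle end: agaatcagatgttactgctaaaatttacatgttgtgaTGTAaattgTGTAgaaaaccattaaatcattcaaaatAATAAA
The stretch held 2 TGTA and ended in AATAAA.

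The other MALAT1 sites with 10 or more reads are these. In the 5′ group, chr11:65266734 had 23 reads in the control library, 12 and 8 in the CFIm59 lines, and 27 and 9 in the CFIm68 lines. At chr11:65266820 there were 14, then 22 and 14, then 57 and 10 reads in the same order, and the site was higher in the CFIm68 lines than in the control by 1.31 on the log2 scale, which did not pass (edgeR adjusted p = 0.0582). Most of its CFIm68 reads came from line 1. In the same order, chr11:65267065 had 41, then 29 and 44, then 83 and 18 reads. At chr11:65267248 there were 31, then 15 and 23, then 54 and 15 reads, and at chr11:65267312 there were 23, then 13 and 23, then 50 and 15. In each of these 5 MALAT1 sites CFIm68 line 1 had the most reads.

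In the middle of MALAT1, chr11:65270501 had 7 reads in the control library, 4 and 5 in the CFIm59 lines, and 16 and 8 in the CFIm68 lines. Another, chr11:65272474, had none in the control library, 5 and 1 in the CFIm59 lines, and 13 and 2 in the CFIm68 lines, and did not pass in the CFIm68 lines (edgeR adjusted p = 0.0921). The sites at chr11:65268078, chr11:65268796, chr11:65269441, chr11:65270428 and chr11:65272337 had 23, 17, 16, 11 and 10 reads over all 5 libraries, and were too low to be tested.

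Of 49 MALAT1 sites, 7 had no read, 15 had 10 or more and 10 were tested. With edgeR's quasi-likelihood test, 0 of those 10 passed in any comparison. Of all 25948 sites tested, 11% passed in the CFIm59 lines, 14.6% in the CFIm68 lines and 37.1% between the knockouts. The most-read pair, chr11:65267065 and chr11:65267432, had a proximal share of 39.8% in the control, 41.4 and 53.0% in the CFIm59 lines, and 48.8 and 43.9% in the CFIm68 lines. The pair did not pass in the CFIm59 lines (0.45, edgeR adjusted p = 0.658), in the CFIm68 lines (0.44, edgeR adjusted p = 0.532) or between the knockouts (-0.01, edgeR adjusted p = 0.988). Another test took together the sites of a gene that passed the read filter (edgeR's diffSpliceDGE, not a quasi-likelihood fit). It took in 10 MALAT1 sites and 3 NEAT1 sites. Among the latter, only chr11:65196298 lies downstream of the NEAT1 short end. The test passed for MALAT1 in the CFIm68 lines (diffSpliceDGE adjusted p = 0.0292), where 35.4% of 6256 genes passed. In the CFIm59 lines, where 8.2% passed, it gave MALAT1 an adjusted p of 0.388 and NEAT1 one of 0.967. It gave NEAT1 an adjusted p of 0.117 in the CFIm68 lines, and of 0.000659 between the knockouts, where 58.9% of genes passed.

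**Figure D4:**
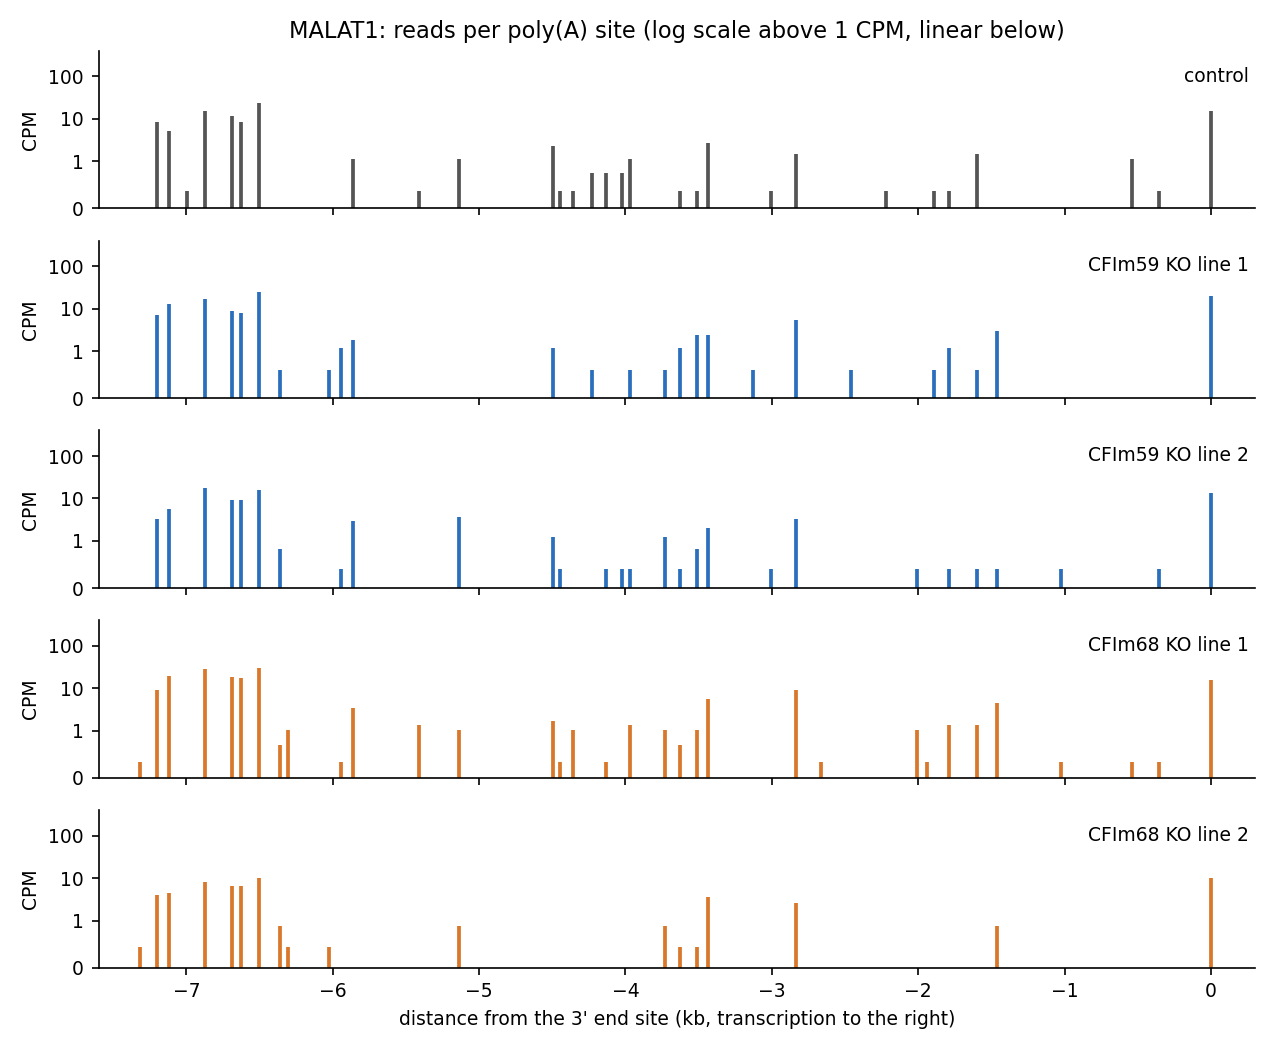
Each vertical line is a MALAT1 poly(A) site, placed by its distance from the 3′ end site in kb, with its height in CPM (log axis above 1, linear below) and 1 row per library. Reads gather at the 6 sites in the 5′ part of the listed sites and at the 3′ end site in every library.

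The proteins that act on NEAT1 and its bodies were read from lists chosen by name. Of CFIm and hnRNP K, CPSF7 rose by 1.47 on the log2 scale in the CFIm68 lines (edgeR adjusted p = 0.000921), from the control level given above to 127 and 203 CPM. NUDT21, which encodes CFIm25, had 119 CPM in the control, 81.1 and 67.5 in the CFIm59 lines, and 139 and 134 in the CFIm68 lines. It passed between the knockouts (0.88, edgeR adjusted p = 0.00161) and against the control in neither. HNRNPK had 787 CPM in the control, 842 and 679 in the CFIm59 lines, and 640 and 678 in the CFIm68 lines, and its expression did not pass in any comparison. Site use did change in 2 of these 4 genes. The change toward the proximal site in the CFIm68 lines against the control was 2.86 on the log2 scale for HNRNPK (edgeR adjusted p = 7.93e-08) and 2.23 for NUDT21 (edgeR adjusted p = 1.95e-05), where 28.1% of genes passed. Both passed between the knockouts too (3.50 and 2.84), where 46.6% of genes passed.

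Of 30 paraspeckle proteins, 29 were tested. In the CFIm59 lines 3 were higher and 1 was lower, where 6.98% of all genes were higher and 6.87% lower, with a list median of 0.03 against 0.02 over all genes. SFPQ, a core paraspeckle protein that binds NEAT1, rose by 0.94 (edgeR adjusted p = 0.00659), from 304 CPM to 616 and 547 CPM. TAF15, an RNA-binding protein, rose by 1.06 (edgeR adjusted p = 0.00226), and HNRNPUL1 rose by 0.73 (edgeR adjusted p = 0.0390). ZNF24, a zinc finger protein, fell by 1.60 (edgeR adjusted p = 1.57e-05). In the CFIm68 lines 0 of 29 passed with edgeR in either direction, where 1.59% of all genes were higher and 2.03% lower. Between the knockouts 1 was higher and 5 were lower in the CFIm68 lines, where 9.46% of all genes were higher and 10.3% lower.

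Of 20 nuclear speckle proteins, 19 were tested, and 0 passed with edgeR in the CFIm59 lines, where 13.9% of all genes passed, or in the CFIm68 lines, where 3.61% passed. PRPF8, a core splicing factor, was lower in the CFIm68 lines than in the CFIm59 lines (-0.57, edgeR adjusted p = 0.0484) and was the 1 speckle gene to pass there, where 19.7% of all genes passed. A list of 12 genes covered RNase P, which cuts the tailless ends of NEAT1 and MALAT1, and RNase Z. Of these, RPP25 fell by 2.50 in the CFIm59 lines (edgeR adjusted p = 1.02e-07), from 58.2 CPM to 10.7 and 9.87 CPM. RPP25 was the 1 of 12 to pass there, where 13.9% of all genes passed. In the CFIm68 lines 0 of the 12 passed with edgeR, where 3.61% did. Between the knockouts 2 were higher and 0 lower in the CFIm68 lines (median 0.38), where 9.46% of all genes were higher and 10.3% lower.

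Other long noncoding RNAs fell more often than they rose in the CFIm59 lines, where NEAT1 rose. Of 23 listed, 19 were tested, and 2 were higher and 8 lower, with a median of -0.67 against 0.02 over all genes, of which 6.98% were higher and 6.87% lower. HOTAIRM1, transcribed from the HOXA cluster, fell by 1.85 (edgeR adjusted p = 5.4e-06), TERC, the RNA of telomerase, by 1.36, and the snoRNA host genes ZFAS1 and SNHG1 by 1.31 and 1.28. In the CFIm68 lines 1 was higher and 1 lower, where 1.59% of all genes were higher and 2.03% lower. Between the knockouts 4 were higher and 1 lower in the CFIm68 lines, where 9.46% of all genes were higher and 10.3% lower.

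Genes near NEAT1 and MALAT1 were counted within 500 kb. Of 64, 42 were tested. In the CFIm59 lines 2 were higher and 4 lower, with a median of -0.12, where 6.98% of all genes were higher and 6.87% lower. In the CFIm68 lines 2 were higher and 0 lower, with a median of 0.44 against 0.02 over all genes, where 1.59% of all genes were higher and 2.03% lower. The 768 genes tested on chromosome 11 had a median of 0.24 there. Between the knockouts 14 neighbours were higher and 0 lower in the CFIm68 lines, with a median of 0.53 against 0.00 over all genes. There 9.46% of all genes were higher and 10.3% lower. Of the 768 genes tested on chromosome 11, 132 were higher and 34 lower in that comparison, with a median of 0.23. NEAT1 lay on the other side, at -1.88. FRMD8, the nearest tested gene upstream, at 13.0 kb, had 32.9 CPM in the control, 27.4 and 23.0 in the CFIm59 lines, and 32.8 and 41.9 in the CFIm68 lines, and did not pass in any comparison.

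**Figure D5:**
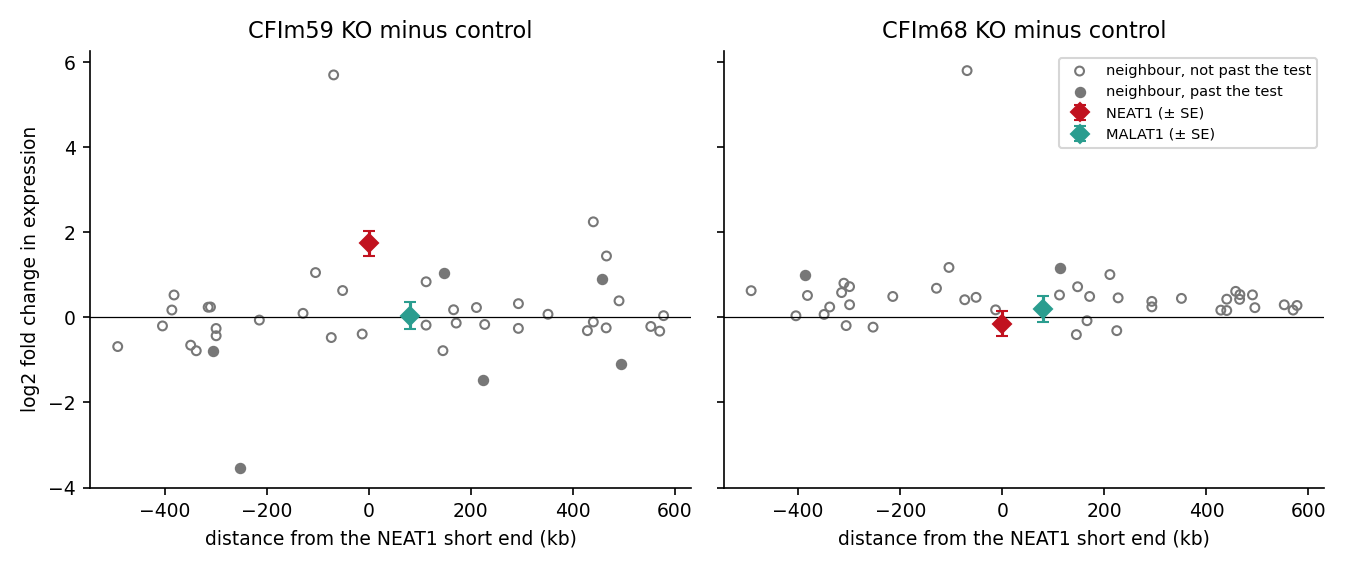
Points give the log2 fold change of gene expression against the control, by distance from the NEAT1 short end in kb; filled grey points passed the test, and diamonds with SE bars are NEAT1 and MALAT1. NEAT1 lies at 1.74 in the CFIm59 lines and at -0.15 in the CFIm68 lines; the open point near the top of both panels is TIGD3, which had no read in the control.

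Among 7513 genes with a mean of 50 or more reads, the pattern of NEAT1 over the 5 libraries was most like that of AP1S2, with a root mean square difference of centred log2 CPM of 0.139, then SASH1 (0.178), COL4A2 (0.183) and CYFIP2 (0.201). AP1S2 had 87.7 CPM in the control, 312 and 294 in the CFIm59 lines, and 110 and 83.8 in the CFIm68 lines. For MALAT1 the most alike were AC010970.1 (0.192), RAD54L2 (0.194), ANKRD30BL (0.203) and AAMDC (0.226). ANKRD30BL had 416 CPM in the control, 593 and 558 in the CFIm59 lines, and 883 and 352 in the CFIm68 lines, so CFIm68 line 1 was highest and line 2 lowest there too.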

How the data were processed

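The authors deposited unnormalised counts of reads at each poly(A) site, 1 column for each of the 5 libraries, with sites named and classed by the authors. Per the submitters' processing notes, hg19, TopHat2 2.1.0 and deepTools 2.4 were used, with no role given; how sites were called and how internal priming was handled are not given in sources used here. Per the labels' protocols, fragmented total RNA was reverse transcribed with oligo(dT). No molecular identifiers were counted. Wilson intervals on shares cover counting error within a library only. Intervals on log2 changes come from the edgeR fit, which includes the spread between lines.

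Counts were summed per gene, filtered with filterByExpr, TMM-scaled and fitted with edgeR 4.0.16 (R 4.3.3) quasi-likelihood tests, 2-sided, with Benjamini-Hochberg adjustment over all genes, sites or pairs and a threshold of 0.05. All 5 libraries entered each fit. Pairs were the most-read 2 sites of a gene with 20 or more reads together and 5 or more each, on average per library. Scripts were tested on simulated data.

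The members and lists were chosen with earlier results of these data known. Sites with 10 or more reads are given by position. From each list up to 4 members that passed, with the largest change, are named, with all of the CFIm and hnRNP K list and the 4 genes most alike; TIGD3 and the middle MALAT1 site were singled out after their values were seen.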

Additional observations from a re-analysis of the deposited data

Results flagged for a closer look

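The effect of losing CFIm68 on NEAT1 differed from that of losing CFIm59 in 4 measures, each tested directly between the knockouts with edgeR's quasi-likelihood test. NEAT1 expression differed by -1.88 on the log2 scale, and its short end by -2.78. The ratio of the short end to all downstream sites differed by -3.20. The change toward the proximal site of the most-read pair was 1.81, and this call was lost when any 1 knockout line was left out. In this comparison 19.7% of genes passed for expression, 37.1% of sites, 49.3% of ratios and 46.6% of pairs. All 4 measures include the short-end reads, so they are not separate results.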

How the results depend on the processing

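NEAT1 kept its higher expression in the CFIm59 lines under all 10 alternatives (log2 1.65 to 1.84). The rise of its short end held under 9 (1.86 to 2.1), though 1 of these, merging sites within 24 nt, changed no value. Both differences between the knockouts held too (-2.15 to -1.67 and -2.93 to -2.65). The ratio of the short end to downstream sites in the CFIm68 lines against the control was -1.79 with DESeq2 and ranged from -2.20 to -1.26 with 1 knockout line left out; in the CFIm59 lines that range was 0.91 to 2.09. With 1 line left out, NEAT1 expression in the CFIm68 lines against the control ranged from -0.41 to 0.061, and its downstream reads in the CFIm59 lines from -0.22 to 0.70. MALAT1 expression ranged over the same leave-outs from -0.13 to 0.22 in the CFIm59 lines, from -0.79 to 0.76 in the CFIm68 lines and from -0.83 to 0.72 between the knockouts, and without a filter on low counts it was -0.034 in the CFIm59 lines. Its 3′ end site ranged from -0.15 to 0.37, -0.55 to 0.10 and -0.67 to 0.0012 in these comparisons, and was -0.0091 without the filter in the CFIm59 lines. With its outermost sites as the pair, MALAT1 gave -0.86, -0.12 and 0.75. With 1 line left out its pair ranged between the knockouts from -0.33 to 0.35, and the ratio of its most-read site to downstream sites from -0.099 to 0.16. The causes were not tested.

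The line numbers do not pair the lines (correlation of deviations -0.026). With the line number as a replicate block, NEAT1 expression was 1.74, -0.17 and -1.91 in the 3 comparisons, MALAT1 expression between the knockouts was -0.023, the MALAT1 pair 0.045 and the MALAT1 ratio -0.0035; the genes that passed in the CFIm68 lines fell from 529 to 296. Genes passing for expression ranged over the alternatives from 579 to 2403 around 2028 in the CFIm59 lines, from 70 to 679 around 529 in the CFIm68 lines and from 1044 to 2913 around 2888 between the knockouts, each lowest with DESeq2. Sites passing ranged from 506 to 3263, 640 to 3784 and 3767 to 9634, and pairs from 25 to 518, 599 to 1737 and 900 to 2779. Pairs of last exon sites, or with higher read minimums, gave no value for NEAT1 or MALAT1. With 608 reads at its short end but 14 at its last site, NEAT1 is read precisely only at the short end.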
